A study of Mus musculus with 8 samples.

Results

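Markers of hepatocellular carcinoma or of the fetal liver, 8 genes in all, were followed in mouse liver RNA: Afp, Igf2, H19, Gpc1, Gpc3, Golm1 (named Golph2 on the array), Ly6d and Tff3. All probes that carried one of these names were taken, whatever their signal, which gave 10 probes for the 8 genes, of 41174 probes for 27597 gene names in all. The RNA came from liver of wild-type mice (AIM+/+) and of mice that lack AIM (AIM-/-, called knockout below), both on the C57Bl/6 strain background. AIM is a protein secreted by tissue macrophages and encoded by Cd5l. Each genotype was sampled on normal chow (0 weeks) and after 6, 12 or 20 weeks of high-fat diet, with 1 array for each genotype and week and 8 arrays in all. Every group therefore held a single array. The labels give no sex, no age and no number of animals behind an array, and chow was sampled at 0 weeks only, so diet and time cannot be told apart.

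The adult hepatocyte keeps the genes of the fetal liver largely silent. Afp, the plasma protein made by fetal hepatocytes and the yolk sac, and the imprinted neighbours Igf2 and H19 are switched off soon after birth, and they can return in regeneration and in liver tumours. Glypicans are heparan sulphate proteoglycans held at the cell surface by a lipid anchor. Gpc3 is a tissue marker of hepatocellular carcinoma, and Gpc1 is its relative with wide expression. Golm1 is a Golgi membrane protein that is cleaved and released into serum. Ly6d is a small surface protein of the Ly6 family, known from keratinocytes and early B cells, and Tff3 is a trefoil peptide secreted by mucosal epithelia.

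Afp and H19 are the members whose control is best known, so their sequences are shown. RefSeq promoter records matched 4 of the 8 genes (Afp, Igf2, Golm1 and Gpc3). The Afp line below gives the 250 bases before the annotated start on chr5:90490464-90490713 of GRCm38.p6, plus strand. Its capitals mark GTTAAT, letters that are part of the site bound by the hepatocyte factor HNF1, and TATAAA, the letters of a TATA box. The other lines give the arms of the microRNA that lies within H19, from RefSeq on the same build, with the seed (bases 2 to 8) in capitals. The 3p arm lies at chr7:142577078-142577099 and the 5p arm at chr7:142577112-142577133, both on the minus strand.
Afp promoter: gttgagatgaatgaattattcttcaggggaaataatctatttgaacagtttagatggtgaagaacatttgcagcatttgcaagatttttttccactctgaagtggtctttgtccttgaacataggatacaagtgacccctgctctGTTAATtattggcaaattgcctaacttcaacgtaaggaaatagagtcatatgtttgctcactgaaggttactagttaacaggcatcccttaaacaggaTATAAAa
mmu-miR-675-3p: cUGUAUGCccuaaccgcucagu
mmu-miR-675-5p: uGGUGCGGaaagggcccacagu
In the Afp window, GTTAAT stood at -105 to -100 and TATAAA at -7 to -2 from the annotated start. Both positions depend on that start, which was not checked, and other forms of these sites were not searched. Over both strands and 32851 mouse windows of 250 bases, 6.43% held GTTAAT and 12.4% held TATAAA. The letters CACGTG (E-box, in 6.02% of windows) and AGGTCA (a nuclear receptor motif, in 14% of windows) were not in the Afp window. The arms differed in seed. The array probes measured the H19 host RNA, not these microRNAs.

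Signals below are the processed intensity of each array in arbitrary units, and each probe is read only against itself. Fold changes come from scaled values, the log2 signal minus the 75th percentile of its array (7.87 to 8.37 on the log2 scale). A probe counted as measured where the scanner software marked it well above background. Between 18585 and 21118 probes passed that mark per array, and genes that passed it on at least 2 of the 8 arrays were tested, 14986 in all. Among them were 6 of the 8 markers, while Gpc3 and Igf2 did not pass. The liver label was met by the level of the hepatocyte markers, 9 measured of 10 listed. Their summed level was 2480 to 3370 times the array's 75th percentile. All 9 were well above background on every array, but so were 12211 genes in all. Cd5l was lower on every knockout array, with knockout minus wild-type differences of -7.53 to -7.02 on the log2 scale. All wild-type arrays shared a slide and scan and all knockout arrays another, so genotype and slide cannot be told apart. Ddx3y, Eif2s3y and Kdm5d, on the Y chromosome, were well above background on 6 arrays but on neither 20-week array, where Xist had scaled values of 1.50 and 1.43. Xist was also well above background on the 6-week knockout array (-0.87) and the 12-week wild-type array (-2.08), so the weeks also differ in sex-linked signal, and results are given with and without the 20-week arrays. In whole liver, fewer cells of a type and less RNA per cell cannot be told apart.

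Afp was measured on every array and showed no common direction with genotype. The probe, at chr5:91583955-91584014 (mm8, the build of the array files, plus strand), had 10 spots per array with a coefficient of variation of 2.04% to 7.74% among them. Wild-type signal was 187, 165, 292 and 95.3 at 0, 6, 12 and 20 weeks. Knockout signal was 453, 167, 406 and 80.9 at the same weeks. The chow knockout array was the brightest and the 20-week arrays were the dimmest of both genotypes, a range of 6.57-fold after scaling, and the genotypes overlapped. At 0 weeks the scaled level was 2.18-fold higher in the knockout (1.12 on the log2 scale, and 0.89 with normexp background correction), and no spot of either array reached into the range of the other. The knockout minus wild-type difference was then -0.35 at 6 weeks, 0.47 at 12 weeks and -0.30 at 20 weeks. The spots show the precision of 1 hybridisation and not the spread between animals.

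**Figure D1:**
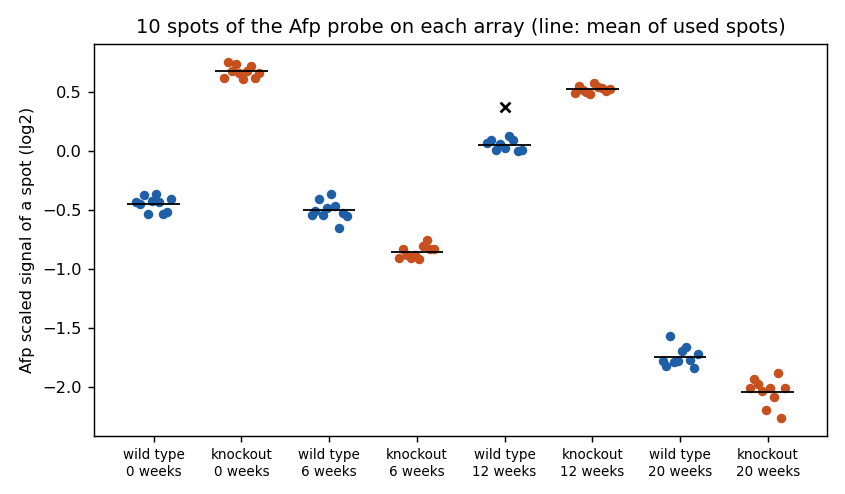
Scaled log2 signal of each Afp spot (y axis) on the 8 arrays (x axis), wild type in blue and knockout in orange, with a line at the mean of the spots used and a cross for a spot that the scanner software marked as an outlier. The chow knockout spots lie between 0.61 and 0.76, above the chow wild-type spots at -0.53 to -0.36, while both 20-week arrays lie below -1.57.

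By genotype the Afp coefficient in a limma fit over the 8 arrays was 0.24 with a standard error (SE) of 0.28 (Benjamini-Hochberg adjusted p = 1). Without the 0-week arrays it was -0.060. Diet minus chow gave -0.88 (SE 0.33) with a limma adjusted p of 0.184, and -0.31 (SE 0.34, adjusted p 0.645) without the 20-week arrays. The 12-week mean was 1.13-fold above the chow mean and the 20-week mean 4.02-fold below it, so that coefficient averages unlike weeks. Knockout arrays at 6, 12 and 20 weeks lay 2.89-fold, 1.11-fold and 6.57-fold below the knockout chow array. The wild-type arrays were 1.04-fold below, 1.41-fold above and 2.46-fold below theirs.

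Genes known to act on Afp, Igf2 or H19 numbered 17, of which 12 were measured. Zbtb20, a zinc finger repressor of Afp, fell with diet by 0.88 (SE 0.13) on the log2 scale, with a limma adjusted p of 0.047. Its scaled values were 4.90 and 5.03 on the chow arrays and 3.71 to 4.24 on the 6 diet arrays, with no overlap. Igf2bp2, a binding protein of Igf2 mRNA, gave 0.91 (SE 0.62, limma adjusted p 0.402). It was not well above background on either chow array, so its coefficient does not measure a fold. Besides Zbtb20, no other of the 12 passed. That is 1 of 12 called, beside 2.57% of all genes, with 3 at an unadjusted p under 0.05, beside 25.3%. The median of the list was -0.22, beside -0.02 over all genes tested. The relatives of Afp in the albumin family did not pass either (0 of 3 by limma, 1 at an unadjusted p under 0.05, beside 25.3% of all genes): Afm gave -0.51 (adjusted p 0.0933) and Gc -0.22 (adjusted p 0.23).

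H19 was measurable at 12 and 20 weeks of diet only, whereas Igf2 stayed at background throughout. The H19 probes lie at chr7:142385254-142385313 and chr7:142385503-142385650 (mm8, minus strand), 74.5 kb from those of Igf2. H19 is an imprinted non-coding RNA, and Igf2 is a fetal growth factor read from the opposite parental chromosome. On the first H19 probe the wild-type signal was 23.2, 20.9, 47.1 and 188 at 0, 6, 12 and 20 weeks. Knockout signal there was 23.3, 16.6, 364 and 71.3. The 4 arrays at 0 and 6 weeks were not well above background and the 4 later ones were, on both probes. The second probe gave 15.8, 20.5, 107 and 85.8 in wild type. In the knockout it gave 13.7, 16, 170 and 36.5.

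The order of the later arrays depended on the H19 probe. Both put the 12-week knockout array highest, but the first put the 20-week wild-type array next and the second the 12-week wild-type array. Knockout exceeded wild type at 12 weeks by 2.94 on the log2 scale (7.68-fold) with the first probe and by 0.66 (1.58-fold) with the second. At 20 weeks the knockout was lower with both, by 2.75-fold and 2.44-fold. The difference between genotypes thus had opposite directions at 12 and 20 weeks on either probe, with 1 array against 1 and no replicate check. Against the floor of the chow array of its genotype, the first probe was at least 11-fold higher at 12 weeks and at least 1.83-fold higher at 20 weeks in the knockout. In wild type it was at least 1.71-fold and at least 6-fold higher. This floor is the lowest signal marked well above background on an array.

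The limma contrasts for H19 used the first probe, which had the higher mean, and none passed. The mean at 12 weeks was at least 4.53-fold above that at 6 weeks, with a coefficient of 2.73 (SE 1.06, limma adjusted p 0.279). That coefficient was 0.88 without the 12-week knockout array, 4.59 without the 12-week wild-type array and 1.22 with normexp background correction. Diet minus chow had a coefficient of 1.39 (SE 0.87, limma adjusted p 0.363), with 4 of the 6 diet arrays and no chow array well above background. Without the 20-week arrays it was 1.06 (SE 0.85, limma adjusted p 0.534). The genotype coefficient of 0.16 (SE 0.75, limma adjusted p = 1) turned to -0.77 without the 12-week arrays and to -0.14 when both probes were averaged.

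Igf2 had 2 probes at chr7:142460185-142460245 and chr7:142460600-142460659 (mm8, minus strand). The first, with 10 spots per array, read 7.29, 5.85, 8.14 and 15.3 in wild type at 0, 6, 12 and 20 weeks. It read 9.17, 8.72, 10.4 and 18.8 in the knockout. A single spot of this probe, 1 of 10 on the 20-week knockout array, was marked well above background. The second Igf2 probe lay between 5.33 and 7.23 on all arrays. The floor was a signal of 24.6 to 33.19, so these values are background, and no fold is given.

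The IGF receptors, ligand Igf1 and binding proteins were all measured (11 of 11). None passed in the diet contrast by limma, and 3 did at an unadjusted p under 0.05, beside 25.3% of all genes. Igfbp2, a binding protein made by hepatocytes, gave -1.04 (SE 0.36, limma adjusted p 0.16), and Igfals, which holds IGF in a circulating complex, gave -0.68 (SE 0.19, adjusted p 0.118). Of 12 other imprinted genes of fetal growth, 9 were measured. Meg3, the non-coding RNA of the Dlk1 region, fell with diet by 1.45 (SE 0.13, limma adjusted p 0.0277), from -1.87 and -1.51 on chow to between -3.67 and -2.80 on diet with no overlap. Both 12-week arrays were not well above background for Meg3. Meg3 was the 1 of 9 called, beside 2.57% of all genes, with 4 at an unadjusted p under 0.05, beside 25.3%. Mest was at 1.37 (SE 0.30, limma adjusted p 0.0807), and the list's median was 0.31, beside -0.02 over all genes.

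**Figure D2:**
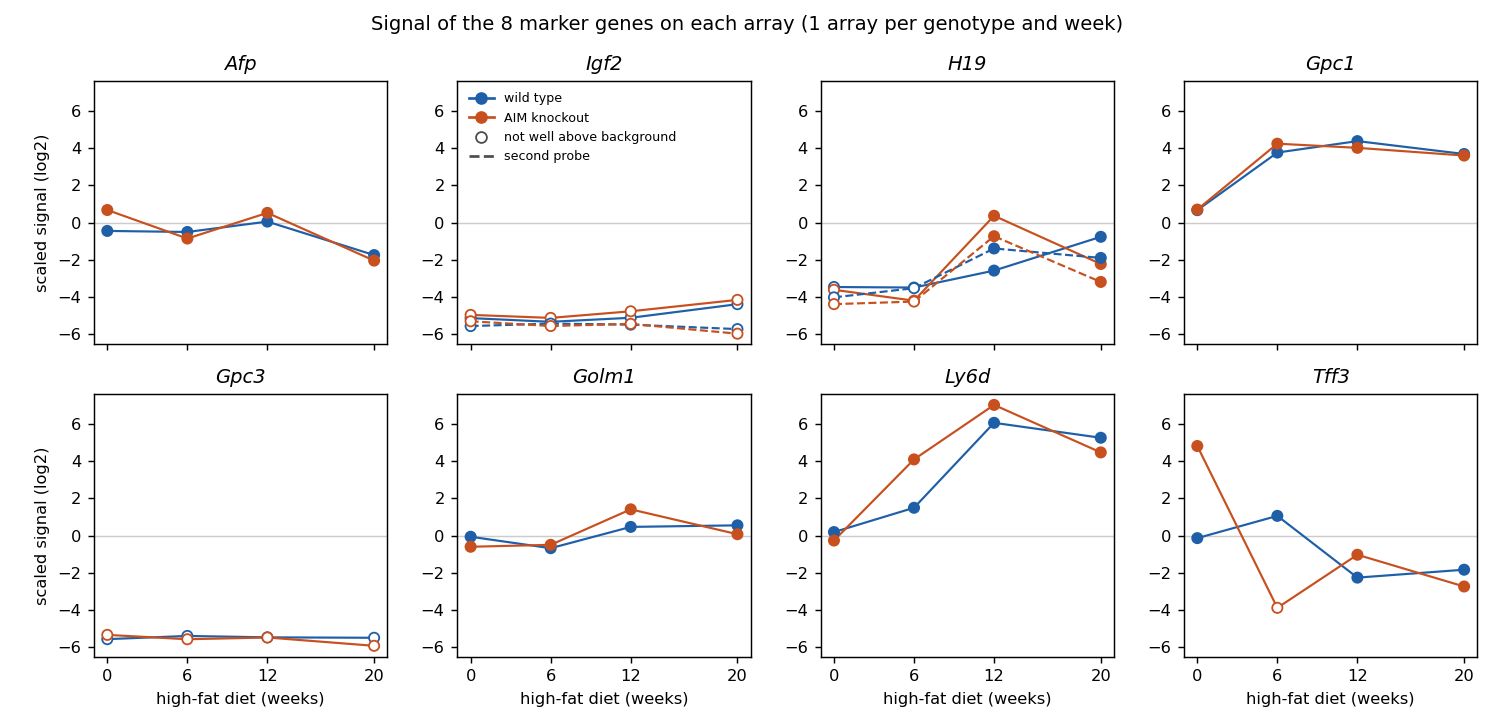
Scaled log2 signal (y axis, 0 is the 75th percentile of the array) of each marker against weeks of high-fat diet (x axis), with 1 array per point, wild type in blue and knockout in orange. Open points were not well above background and dashed lines are second probes. Gpc1 and Ly6d were higher on all 6 diet arrays than on both chow arrays, H19 was measured only at 12 and 20 weeks, and Gpc3 and Igf2 stayed at background.

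Gpc1 rose with high-fat diet in both genotypes. The probe, at chr1:94690540-94690599 (mm8, plus strand), gave 404, 3170, 5820 and 4090 in wild type at 0, 6, 12 and 20 weeks. The knockout signal was 461, 5690, 4560 and 4030. Both chow arrays were low and all 6 diet arrays were high, with no overlap. Each diet array was 7.46-fold to 13.1-fold above the chow array of its genotype. The 6-week level was within 1.28-fold of the later weeks: the mean at 12 weeks was 1.15-fold higher and that at 20 weeks 1.28-fold lower.

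Diet minus chow for Gpc1 was 3.26 (SE 0.18), a 9.58-fold difference, with a limma adjusted p of 0.0203. The members called in this contrast were Gpc1 and Ly6d, 2 of the 6 tested, beside 2.57% of all genes (1.71% called higher and 0.854% lower). At an unadjusted p under 0.05 there were 3 (with Afp), beside 25.3% of all genes. Gpc1 had the rank 5 by p and 25 by coefficient among 14986 genes. Without the 20-week arrays the coefficient was 3.41 and the adjusted p 0.0836, and without the 12-week arrays 3.14 and 0.0713. When single arrays were left out, the coefficient stayed between 3.16 and 3.36, and the adjusted p of 0.0344 to 0.106 passed the threshold in 1 of 8 cases, that without the 6-week wild-type array. The fits with arrays left out also had fewer residual degrees of freedom than the 3 of the whole fit.

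Between genotypes Gpc1 had no common direction. Knockout minus wild type was 0.03, 0.48, -0.36 and -0.08 (0.04 with normexp) at 0, 6, 12 and 20 weeks, and the coefficient was 0.02 (SE 0.16, limma adjusted p = 1). Its sign turned to -0.14 without the 6-week arrays. The interaction, which asks whether the diet difference depends on genotype, was -0.02 (SE 0.52, limma adjusted p = 1).

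Gpc3 stayed at background on all 8 arrays. Its probe, at chrX:48517190-48517249 (mm8, minus strand), read 5.41, 5.62, 6.39 and 7.14 in wild type and 7.08, 6.40, 6.38 and 5.52 in the knockout. Signals under the floor have no order, so no comparison was made. With a floor of 24.6 to 33.19, a level under that signal was not detectable here.

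The other glypicans, the syndecans and the enzymes that build or trim heparan sulphate numbered 14, and 11 were measured. None passed with diet by limma, and 5 did at an unadjusted p under 0.05, beside 25.3% of all genes. Sulf2, which removes sulphate groups from heparan sulphate, gave 1.02 (SE 0.26, limma adjusted p 0.0988), and the syndecan Sdc3 gave 0.61 (SE 0.18, adjusted p 0.124). The list's median was -0.12.

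Golm1 was moderately higher at 12 and 20 weeks than before, and no contrast passed. The probe, at chr13:59644728-59644787 (mm8, minus strand), gave 244, 147, 389 and 468 in wild type at 0, 6, 12 and 20 weeks. In the knockout it gave 188, 215, 751 and 350. After scaling, the 4 arrays at 12 and 20 weeks all lay above the 4 at 0 and 6 weeks, with means 2.12-fold apart. This split was seen in the values and was not tested. The 12-week knockout array was the highest, 4.02-fold above the knockout chow array, whereas the other 5 diet arrays lay less than 2-fold from theirs. The 12-week minus 6-week coefficient was 1.52 (SE 0.40), with a limma adjusted p of 0.175, and diet minus chow was 0.55 (SE 0.32, adjusted p 0.338), or 0.51 (SE 0.34) without the 20-week arrays. The genotype coefficient was 0.03 (SE 0.28, limma adjusted p = 1), and knockout minus wild type ran -0.54, 0.18, 0.94 and -0.48 over the weeks.

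Ly6d was the other marker that rose with diet. The probe, at chr15:74589376-74589435 (mm8, minus strand), gave 290, 661, 18700 and 12200 in wild type at 0, 6, 12 and 20 weeks. Knockout signal was 237, 5150, 36500 and 7350. All 6 diet arrays lay above both chow arrays, the 12-week arrays were the brightest of each genotype, and the genotypes overlapped. At 12 weeks Ly6d was 58.2-fold above chow in wild type and 155-fold above chow in the knockout. At 20 weeks these folds were 33.4 and 26.5, and at 6 weeks 2.47 and 20.5.

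Diet minus chow for Ly6d was 4.77 (SE 0.69), a 27.2-fold difference, with a limma adjusted p of 0.0479. It had the rank 4 by coefficient and 302 by p among the 14986 genes. The call was lost without the 20-week arrays (coefficient 4.70, adjusted p 0.109), without the 12-week arrays (3.86 and 0.198), with quantile normalization (adjusted p 0.0517), with no filter on dim probes (0.094) and with the mean of a gene's probes (0.0505). With single arrays left out, the coefficient was 4.08 to 5.45 and the adjusted p 0.0438 to 0.209, which passed in 1 of 8 cases, that without the 6-week wild-type array.

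Between genotypes the difference in Ly6d changed sign over time. Knockout minus wild type was -0.45 on chow, 2.60 at 6 weeks (6.05-fold higher), 0.96 at 12 weeks and -0.79 at 20 weeks. The genotype coefficient was 0.58 (SE 0.60, limma adjusted p = 1), and it was -0.093 without the 6-week arrays. The interaction was 1.38 (SE 2.77, limma adjusted p = 1). The 12-week minus 6-week coefficient was 3.74 (SE 0.85), with an unadjusted p of 0.00688 and a limma adjusted p of 0.158.

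Of 13 listed relatives of Ly6d, 7 were measured. Ly6c1, a surface protein of endothelium and some leukocytes, rose with diet by 2.62 (SE 0.24, limma adjusted p 0.0277). Its scaled values were 1.52 and 0.68 on chow and 2.68 to 5.0 on diet, with no overlap. Ly6a, known as the stem cell antigen Sca-1, gave 1.62 (SE 0.28, limma adjusted p 0.0578). Ly6c1 was the 1 of 7 called, beside 2.57% of all genes, with 3 at an unadjusted p under 0.05, beside 25.3%. The list's median was 0.28.

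Markers of other cells moved in part with Ly6d, Golm1 and H19. Of 9 B-cell and plasma-cell markers 5 were measured, with a summed level of 1.34 to 2.26 times the array's 75th percentile, and the chow arrays (2.05 and 2.26) were the highest. Squamous epithelial markers, 6 measured of 10, summed to 3.19 and 3.54 on chow and 3.70 to 12.8 on diet. Sprr1a carried that difference, with a rise of 3.39 (SE 0.45, limma adjusted p 0.0454). Without it the sum was 2.82 to 3.46 on all arrays. Markers of bile ducts and progenitors, 7 measured of 10, summed to 2.69 and 3.45 on chow and to 35.0 and 98.2 at 12 weeks. Spp1 (osteopontin) carried it, with a rise of 3.52 (SE 0.47, limma adjusted p 0.0454). Without Spp1 the sum was 0.777 to 2.05 at 0 to 12 weeks and 3.85 and 2.37 at 20 weeks. Epcam and Prom1, picked out after their values were seen, were well above background on the 20-week arrays only, those without Y-linked signal. Of the 7, 6 had a positive diet coefficient, and the list's median was 1.11, beside -0.02 over all genes. The share of positive coefficients over all genes was not counted. Krt7 and Krt19 were well above background on 4 and 5 arrays. Sox9 was lower at 20 weeks (-1.09 and -1.50, scaled) than on chow (-0.86 and 0.32). Mesothelial and fibroblast markers, 5 measured of 9, summed to 2.28 and 1.95 on chow, 2.02 and 4.40 at 6 weeks and 7.64 to 12.4 later. The call in that list was Dpt, a matrix protein, at 2.05 (SE 0.22, limma adjusted p 0.0351). Dpt was well above background on 3 arrays, none of them at 0 or 6 weeks. Its coefficient thus rests on background values on chow and does not measure a fold. Col3a1 and Col1a1, collagen genes picked out after their values were seen, carried the later sums. At 20 weeks their scaled values were 2.43 and 2.08 (Col3a1) and 1.62 and 0.98 (Col1a1), beside -0.66 and -1.25 for Dpt. Col1a1 did not pass with diet, at 2.63 (SE 0.67, limma adjusted p 0.0998). With diet, 1 of 6 squamous, 1 of 7 bile duct, 1 of 5 mesothelial and 0 of 5 B-cell markers were called, beside 2.57% of all genes. The part of these cells in the marker values was not tested.

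Tff3 spanned the widest range of the 8 markers and had no common direction with genotype. After scaling, the arrays at 12 and 20 weeks all lay below both chow arrays. The 6-week arrays went opposite ways, wild type above its chow array and knockout below. The probe, at chr17:30852346-30852405 (mm8, minus strand), is a single spot per array. Wild-type signal was 232, 489, 58.9 and 89.8 at 0, 6, 12 and 20 weeks. Knockout signal was 7960, 20.6, 139 and 50.1, with the 6-week value not well above background. The chow knockout array stood far above the other 7, and the 6-week knockout array was the lowest. Tff3 was 30.8-fold higher in the knockout on chow and at least 20.7-fold lower in the knockout at 6 weeks. At 12 weeks the knockout was 2.34-fold higher (1.23 on the log2 scale, and 0.67 with normexp background correction) and at 20 weeks 1.87-fold lower.

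Within the knockout, Tff3 was lower than on chow by at least 279-fold at 6 weeks, 57.1-fold at 12 weeks and 186-fold at 20 weeks. In wild type it was 2.29-fold higher at 6 weeks, 4.35-fold lower at 12 weeks and 3.24-fold lower at 20 weeks. Diet minus chow was -4.11 (SE 1.84) with a limma adjusted p of 0.238 and 5 of 6 diet arrays well above background, and leaving out the chow knockout array, with the other chow array alone as the baseline, gave -0.87, and leaving out the chow wild-type array gave -7.35. Without the 20-week arrays it was -3.86 (SE 2.15, limma adjusted p 0.404). The genotype coefficient was 0.08 (SE 1.59, limma adjusted p = 1), and it was -1.54 without the 0-week arrays. The interaction was -6.48 (SE 2.19), with an unadjusted p of 0.0259 and a limma adjusted p of 1, and its knockout baseline is the chow knockout array alone. Markers of gut epithelium, 4 measured of 12, summed to 86.4 on that array and 85.1 on the chow wild-type array. Without Fabp2, the fatty acid carrier of enterocytes that rose with diet by 1.74 (SE 0.12, limma adjusted p 0.0227), those sums were 2.72 and 4.33. Pancreatic acinar markers, 4 measured of 10, summed to 0.554 there, the lowest of the 8 arrays, beside up to 1.27 elsewhere. Erythroid markers, 4 measured of 8, summed to 52.9 there and 42.7 on the chow wild-type array, and 8.48 to 38.6 on diet. Alas2, the erythroid enzyme of haem synthesis, carried these sums and fell with diet by 1.37 (SE 0.16, limma adjusted p 0.0397). Its scaled values on the chow arrays were 5.36 and 5.68, beside 0.20 and 0.13 for Epor, the next highest of the 4. Hbb-y, the 1 of the 4 with a positive diet coefficient, gave 0.43 (SE 0.15, limma adjusted p 0.157). It was not well above background on either chow array, so its coefficient does not measure a fold. The erythroid sum follows Alas2 and is no measure of fetal cells. With diet, 1 of 4 gut, 1 of 4 erythroid and 0 of 4 acinar markers were called, beside 2.57% of all genes.

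**Figure D3:**
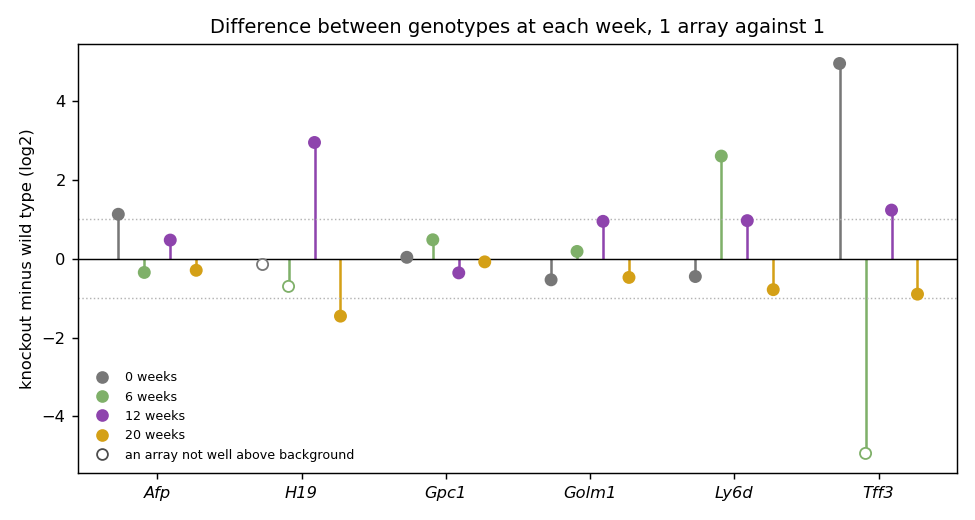
Knockout minus wild-type difference in scaled log2 signal (y axis) for the 6 tested markers (x axis) at 0, 6, 12 and 20 weeks, each from 1 array against 1, with dotted lines at 2-fold and open points where an array was not well above background. Tff3 was at 4.94 at 0 weeks and lower by at least 20.7-fold at 6 weeks (open point), H19 from 2.94 at 12 weeks to -1.46 at 20 weeks, and Gpc1 stayed between -0.36 and 0.48.

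Over the 4 weeks, none of the 6 tested markers kept the same sign between genotypes. The share of all genes that kept 1 sign was not counted, so this is no result about the markers. The H19 signs on chow and at 6 weeks rest on background values. On chow, Afp and Tff3 were at least 2-fold higher in the knockout, 2 of 6, beside 2.93% of all genes higher and 4.3% lower. At 6 weeks Ly6d was higher and Tff3 lower, beside 3.03% and 3.5%. At 12 weeks H19 and Tff3 were higher, beside 2.5% higher and 1.96% lower. At 20 weeks H19 alone was lower, beside 1.9% higher and 2.13% lower. These are single arrays with no replicate check. In the limma fit over all weeks 0 of 6 markers passed by genotype, with 0 at an unadjusted p under 0.05, beside 5.58% of all genes. Over all genes 0.0334% passed (5 genes, 0.0133% called higher and 0.02% lower).

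Against the chow array of its genotype, each diet array had Gpc1 and Ly6d at least 2-fold higher. In wild type at 6 weeks 3 of 6 markers were higher (Gpc1, Ly6d and Tff3) and none lower, beside 3.84% and 3.06% of all genes. At 12 weeks 2 were higher and Tff3 lower, beside 7.99% and 4.94%. At 20 weeks 3 were higher (with H19) and 2 lower (Afp and Tff3), beside 9.69% and 4.88%. In the knockout at 6 weeks 2 were higher and Afp and Tff3 lower, beside 5.63% and 3.88%. At 12 weeks H19 and Golm1 joined the higher ones, 4 of 6, with Tff3 lower, beside 10.5% and 5.75%. At 20 weeks Gpc1 and Ly6d were higher and Afp and Tff3 lower, beside 8.52% and 3.93%, and H19 was 2.61-fold higher as measured but only at least 1.83-fold against the floor. The comparisons of a genotype share its chow array, and these counts carry no test.

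Between 12 and 6 weeks 0 of 6 markers and 0% of all genes passed by limma. The arrays compared all had Y-linked signal, and the 6-week knockout and 12-week wild-type arrays also had Xist signal. The fit and its standard errors used all 8 arrays. At an unadjusted p under 0.05 there were 3 markers (Ly6d, H19 and Golm1), beside 17.8% of all genes. Afp gave 0.97 (SE 0.40, limma adjusted p 0.3), Gpc1 0.20 (SE 0.22, adjusted p 0.699) and Tff3 -0.23 (SE 2.25, adjusted p 0.972). For the interaction of genotype with diet, 0 of 6 markers and 0% of all genes passed by limma. Tff3 was the marker at an unadjusted p under 0.05, beside 4.45% of all genes. Afp stood at -1.18 (SE 1.51), Golm1 at 0.75 (SE 1.15) and H19 at 0.41 (SE 2.54), each with a limma adjusted p of 1.

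**Figure D4:**
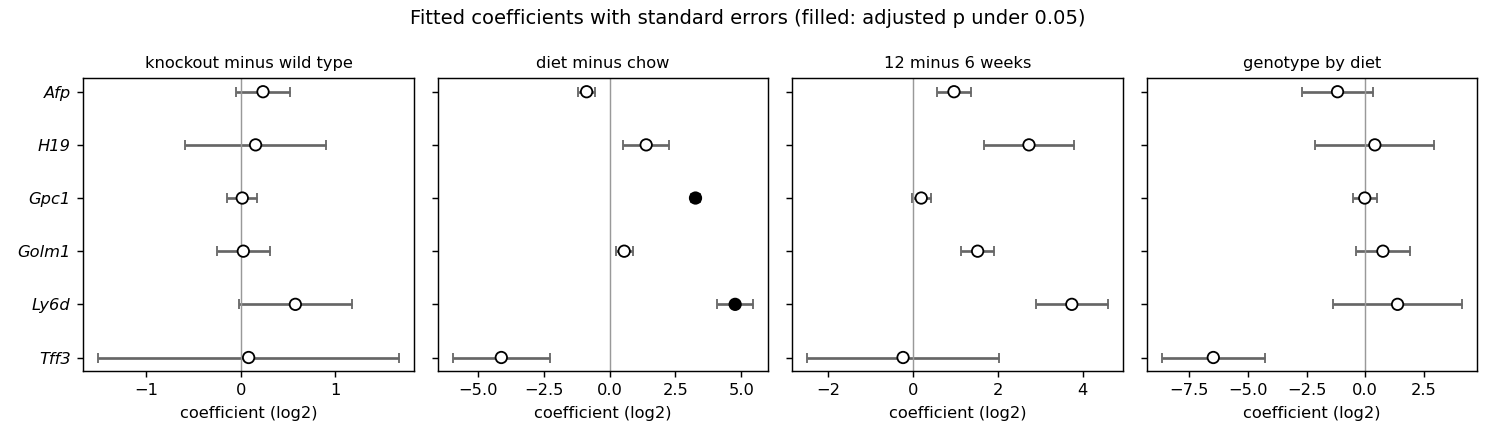
Fitted coefficients (x axis, log2, with a scale of its own in each panel) of the 6 tested markers for 4 limma contrasts, with bars of 1 standard error. Filled points passed an adjusted p under 0.05: Gpc1 at 3.26 and Ly6d at 4.77 for diet minus chow.

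A wider list of 37 genes linked to liver tumours or to the fetal liver had 24 measured. With diet 3 were called higher and none lower, beside 1.71% and 0.854% of all genes. At an unadjusted p under 0.05 there were 9, beside 25.3% of all genes. Lcn2, a secreted lipocalin of the acute phase, rose by 3.82 (SE 0.25, limma adjusted p 0.0227), from -2.70 and -2.76 on chow to between -0.28 and 2.09 on diet. Mki67, a marker of cycling cells, rose by 2.44 (SE 0.22, limma adjusted p 0.0277) and was highest on the 12-week arrays (0.43 and 1.21). Abcb1a, a drug efflux transporter, was the third called (limma adjusted p 0.0351) but was well above background on the 20-week arrays only. Its coefficient of 1.54 (SE 0.16) thus rests on background values at all earlier weeks and does not measure a fold. The list's median was 0.67 with diet and 1.19 between 6 and 12 weeks, beside -0.02 and -0.05 over all genes. Without the 20-week arrays 0 of 14986 genes passed with diet by limma (2870 at an unadjusted p under 0.05). Every diet call named in this text was therefore lost there. Besides the markers, this holds for Zbtb20, Meg3, Ly6c1, Lcn2, Mki67, Abcb1a, Spp1, Sprr1a, Dpt, Fabp2 and Alas2.

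Over all 7 lists of related genes, 76 of 106 were measured. With diet 6 passed by limma (4 higher and 2 lower), beside 2.57% of all genes (1.71% higher and 0.854% lower). At an unadjusted p under 0.05 there were 28, beside 25.3% of all genes. By genotype 0 passed by limma, with 6 at an unadjusted p under 0.05, beside 5.58% of all genes. Between 12 and 6 weeks 0 passed, with 30 unadjusted, beside 17.8%. For the interaction 0 passed, with 2 unadjusted, beside 4.45%.

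Some genes followed the markers closely over the 8 arrays. The search covered the 10865 or 10866 named genes well above background on every array. The correlations are descriptions of 8 points that share diet, week and slide. Ly6d ran with Ifi27l2b (Pearson r 0.9989) and with Wfdc2 (0.9952), a secreted protein with a whey acidic protein domain. Gpc1 ran with Aldh3a2, a fatty aldehyde dehydrogenase (0.9921), and with Bdh1, a mitochondrial enzyme of ketone bodies (0.9885). Golm1 ran with the receptor phosphatase Ptprs (0.9722) and with Pign (0.9715), and Afp with Hmces (0.9735) and Tmem141 (0.9726). Tff3 ran with Rps15a (0.9774) and Zfp212 (0.9763), which spanned only 0.52 and 0.30 on the log2 scale, and the 6-week knockout value of Tff3 in these correlations was at background. Among the markers well above background on every array, Gpc1 and Ly6d had r 0.83, Ly6d and Golm1 0.79, Gpc1 and Golm1 0.37, Afp and Golm1 0.08, Afp and Ly6d -0.18, and Afp and Gpc1 -0.30.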

How the data were processed

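Liver RNA was hybridised to 8 one-colour Agilent arrays, 1 per genotype and week. The authors' intensity values (processed signal, background-subtracted by Feature Extraction 9.5.3.1, protocol GE1-v5_95_Feb07, design 014868, per the file headers, and 9.5 per the submitters' processing notes) were the start. The deposited value table holds log2 values that matched log2 processed signal minus the array's 75th percentile (SD of the difference 0.0025 to 0.0064, with column medians of -3.605 to -3.416).

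The 1639 control spots and 75 to 130 outlier spots per array were dropped, the remaining spots of each probe averaged in intensity, and log2 values scaled by the 75th percentile. Names were updated through a RefSeq table of GRCm38.p6 (24375 probes by accession, 8727 by symbol or synonym, 8072 under the array's own name). Probe coordinates come from the array files (mm8). Exons and UTRs were not analysed here. Where a gene had several probes, that of highest mean was used. Tests used limma 3.58.1 (R 4.3.3) with Benjamini-Hochberg adjustment over 14986 genes and a threshold of 0.05. Week (4 levels) and genotype were terms, with 3 residual degrees of freedom, and the interaction came from 4 cells with 4. With no replicates within a group, the weeks of a genotype, or both genotypes of a week, act as its replicates. P-values therefore measure the spread between these arrays, which may be technical, rather than that between animals. The number of arrays limits the precision. The fits were tested on simulated data. Python 3.11.15 with numpy 2.4.6, pandas 2.3.3 and matplotlib 3.10.9 did the rest.

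Alternatives were normexp background correction (offset 50), quantile normalization, other filters on dim probes, the mean of a gene's probes, the deposited table, and pairs or single arrays left out. The markers, the gene lists and the tests were chosen with earlier results of these data known. Named genes were the 8 markers, Cd5l, the list members past the threshold with up to 2 of the largest coefficient, and the 2 genes most correlated with each marker well above background on at least 6 arrays.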

Additional observations from a re-analysis of the deposited data

How the results depend on the processing

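Over the alternatives for the 6 tested markers, 460 of the 524 values that concern single markers kept their direction and their side of the threshold, 40 changed sign, 21 lost a call (all for Gpc1 or Ly6d with diet) and 3 crossed the 2-fold line at a single week. These values are not separate checks. Leaving out either array of a week, or the pair, gives the same genotype fit. The 12-week minus 6-week coefficient cannot move without 0-week or 20-week arrays. A marker with a single probe keeps its coefficient under other filters and the mean of probes. All sign changes concern values that had not passed. Among them are the single-week differences of H19 at 0 weeks (0.036 with quantile normalization) and Gpc1 at 20 weeks (0.040 with normexp). By genotype the coefficient became -0.060 for Afp and -1.54 for Tff3 without the 0-week pair, -0.14 for Gpc1, -0.093 for Ly6d and -0.024 for Golm1 without the 6-week pair, and -0.77 for H19, -0.30 for Tff3 and -0.28 for Golm1 without the 12-week pair. It was -0.14 for H19 with the mean of a gene's probes. The interaction became 0.0084 for Gpc1 with normexp, 0.16 without the 12-week pair and 0.025 without the 20-week pair, and -0.93 for H19 without the 12-week pair. For these changes the cause was not tested.

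The number of genes called by genotype (5) was 3 with the filter on all arrays and 1 without the 0-week, 6-week, 12-week or 20-week pair. With diet (385) it was 705 with normexp, 894 with the filter on all arrays (fewer genes tested), 30 with no filter (more genes tested), and 586, 6 and 0 without the 6-week, 12-week and 20-week pair. Between 12 and 6 weeks it went from 0 to 5 with the filter on all arrays, and for the interaction from 0 to 107 with no filter. At least 2-fold apart at 0, 6, 12 and 20 weeks were 1084, 978, 669 and 603 genes. These were 390, 343, 206 and 196 with normexp and 470, 389, 178 and 147 with the filter on all arrays, and with no filter 1024 at 12 weeks and 1038 at 20 weeks.

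Leaving out each array in turn was chosen after seeing the data, and an arm left with a lone array is assumed to vary like the others. The count was then 1 by genotype, 0 to 171 with diet and 0 to 1 for the interaction. For genotype, either array of a week left out gave the same coefficient as the pair left out. Genotype coefficients ran from -0.060 to 0.43 (Afp), -0.14 to 0.14 (Gpc1), -0.77 to 0.70 (H19), -0.093 to 1.03 (Ly6d), -1.54 to 1.76 (Tff3) and -0.28 to 0.22 (Golm1). Between 12 and 6 weeks they ran from -0.11 to 0.50 (Gpc1), -3.58 to 3.11 (Tff3), 0.88 to 4.59 (H19), 2.40 to 5.09 (Ly6d), 0.91 to 2.14 (Golm1) and 0.58 to 1.36 (Afp). For the interaction they ran from -0.17 to 0.20 (Gpc1), -0.78 to 1.5 (H19) and -0.0086 to 2.27 (Ly6d). No paired analysis was possible because each group has a single array and all carry the same replicate number. The week term of the fit already sets knockout against wild type within each week. The slide as a block was not run, since each slide held 1 genotype. H19 and Tff3 gave no value with the filter on all arrays. Signals near background, as for H19, Igf2 and Gpc3, limit what can be read from these arrays.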
